A study of Mus musculus with 12 samples.

Results

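The 10 genes described here encode receptor chains through which T cells receive cytokines. They were taken by symbol from the 12809 genes of the expression table, and all 10 are listed there with a value in each of the 12 libraries. The RNA came from T cells of the lymph nodes (LN), sorted by coreceptor. There were 4 groups of 3 libraries, CD4 and CD8 T cells of B6 mice (B6 CD4 and B6 CD8) and of FlipFlop mice (FlipFlop CD4 and FlipFlop CD8). All mice were female. The B6 mice, which are C57BL/6, carried unaltered coreceptor genes and were 10 weeks old by the labels. The FlipFlop mice were 14 weeks old by the labels, so age and strain cannot be told apart, and this age lies above the range that the methods give for all mice. On both copies of chromosome 6 they carried a Cd4 locus altered to encode CD8αβ and a Cd8a locus altered to encode CD4, joined by a crossover. FlipFlop mice can also retain genes of the embryonic stem cell strain in which the Cd8a allele was made. The study asked whether the lineage of a T cell follows the coreceptor locus or the coreceptor protein. In that design B6 CD4 and FlipFlop CD8 T cells express their coreceptor from the Cd4 locus and are called helper-lineage cells, and B6 CD8 and FlipFlop CD4 T cells express it from the Cd8a locus and are called cytotoxic-lineage cells.

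Most of these chains are type I cytokine receptors, which lack a kinase of their own and signal through JAK kinases bound to their tails and through STAT factors. Several ligand-specific chains pair with a shared one. Il2rg is the common γ chain used with Il7r, Il2rb, Il4ra and Il21r, whereas Il6st, also named gp130, is the signaling chain used with Il6ra and Il27ra. Il18r1 belongs instead to the interleukin-1 receptor family, and Il12rb1 is part of the receptors for IL-12 and IL-23. In peripheral T cells IL-7 sustains naive cells, IL-2 and IL-15 act through Il2rb on regulatory, memory and CD8 T cells, and IL-4, IL-6 and IL-21 guide the differentiation of helper cells.

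Promoter windows are shown for 5 of the members, chosen because Il4ra and Il6ra were higher in helper-lineage cells, Il18r1 was higher in CD8 T cells, and Il2rg and Il21r were the 2 members with the highest correlation across libraries. The windows reach from 250 bases before to 50 bases after the RefSeq start site on GRCm38.p6, are printed 5′ to 3′ on the gene's strand, and were found for 7 of the 10 members. Il18r1 has 3 such windows, of which the first is printed. Capitals mark letters that match one of 5 searched motifs. The motifs were TGTGGT of RUNX factors, AGGTGTGA of T-box factors, TTCNNNGAA of STAT factors, CCGGAAGT of ETS factors and CTTTGAA of TCF/LEF factors, each searched on both strands.
Il4ra, chr7:125552021-125552320, plus strand: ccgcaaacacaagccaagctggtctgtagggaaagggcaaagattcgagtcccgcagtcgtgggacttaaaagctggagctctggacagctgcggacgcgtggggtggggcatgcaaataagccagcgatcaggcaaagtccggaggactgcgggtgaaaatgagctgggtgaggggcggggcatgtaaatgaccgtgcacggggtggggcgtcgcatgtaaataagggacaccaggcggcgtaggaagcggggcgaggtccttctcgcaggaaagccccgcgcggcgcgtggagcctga
Il6ra, chr3:89913147-89913446, minus strand: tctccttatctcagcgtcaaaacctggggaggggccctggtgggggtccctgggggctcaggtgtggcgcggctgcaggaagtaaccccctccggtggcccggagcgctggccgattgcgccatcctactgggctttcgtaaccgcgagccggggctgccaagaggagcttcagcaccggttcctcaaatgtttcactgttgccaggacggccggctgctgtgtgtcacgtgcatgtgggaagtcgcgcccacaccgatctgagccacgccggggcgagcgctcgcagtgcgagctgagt
Il18r1, chr1:40465302-40465601, plus strand: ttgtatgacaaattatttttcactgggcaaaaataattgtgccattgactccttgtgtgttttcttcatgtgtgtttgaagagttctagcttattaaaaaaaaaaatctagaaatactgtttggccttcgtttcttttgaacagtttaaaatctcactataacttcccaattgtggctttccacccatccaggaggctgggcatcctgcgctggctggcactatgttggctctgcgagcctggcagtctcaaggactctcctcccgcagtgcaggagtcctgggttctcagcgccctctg
Il2rg, chrX:101268206-101268505, minus strand: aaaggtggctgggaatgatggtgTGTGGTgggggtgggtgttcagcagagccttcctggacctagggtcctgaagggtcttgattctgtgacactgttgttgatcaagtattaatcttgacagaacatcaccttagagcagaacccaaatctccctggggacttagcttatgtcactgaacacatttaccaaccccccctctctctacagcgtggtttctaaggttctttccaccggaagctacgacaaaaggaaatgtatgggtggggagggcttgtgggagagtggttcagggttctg
Il21r, chr7:125603179-125603478, plus strand: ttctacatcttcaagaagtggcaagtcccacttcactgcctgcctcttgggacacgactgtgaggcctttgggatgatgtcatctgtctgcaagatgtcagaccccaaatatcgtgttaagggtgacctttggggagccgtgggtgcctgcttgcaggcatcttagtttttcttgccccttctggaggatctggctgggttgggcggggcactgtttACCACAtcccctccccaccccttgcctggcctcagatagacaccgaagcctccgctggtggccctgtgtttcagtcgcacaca
The printed windows hold 25 CG dinucleotides in Il4ra, 25 in Il6ra, 5 in Il18r1, 3 in Il2rg and 7 in Il21r. The unprinted windows hold 33 in Il6st, 1 in Il7r and 7 and 8 in the second and the third of Il18r1. The RUNX letters were found once in Il2rg, 227 bases before the start, and once in Il21r as ACCACA, 33 bases before it. They occur in 16.8% of 32817 promoters of the same length. None of the 5 motifs was found in the printed windows of Il4ra, Il6ra and Il18r1. The second window of Il18r1 held the RUNX letters 22 bases after its start, and the third held the STAT spacing in TTCTGGGAA at position -219 and in TTCCCAGAA at position -152 from its start. The Il7r window, which is not printed, held the RUNX letters 4 bases after the start and TTCAGGGAA, which has the STAT spacing, 142 bases before it, and the STAT letters occur in 8.29% of promoters.

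Reads on the listed genes numbered about 26600000 to 33100000 per library. Levels are given as CPM, reads of a gene scaled to the size of the library and divided by the authors' TMM factor, which corrects for library composition. Reads assigned to the Cd4 gene measured 961 to 1090.3 CPM in B6 CD4 and 637 to 719 CPM in FlipFlop CD4 T cells, against at most 43.6 CPM in both CD8 groups, and reads assigned to the Cd8a gene measured 1472 to 1500 CPM in B6 CD8 and 138 to 159 CPM in FlipFlop CD8 T cells, against at most 1.59 CPM in both CD4 groups, so the labeled coreceptor gene was the higher of the pair in every library. Cd8b1, the neighbor of Cd8a that encodes the β chain, measured 1639 to 1962 CPM in FlipFlop CD4 and 125 to 151 CPM in FlipFlop CD8 T cells. The 6 T cell markers summed to 3041 to 4262 CPM per library, while 6 B cell markers summed to 35.8 to 67.5 and 6 myeloid markers to 7.29 to 30.8 CPM. The 3 listed NK cell markers summed to 13.2 to 16.1 CPM in FlipFlop CD8 and 3.61 to 9.54 CPM in the other groups. The higher sum came mainly from Klrb1c, at a mean of 10.8 CPM in FlipFlop CD8 against 1.82 to 3.52 CPM in the other groups. The means of Gzma and Tyrobp were lower in FlipFlop CD8 than in B6 CD8. The NK cell markers Ncr1 and Klra8 are not among the listed genes. The 6 regulatory T cell markers summed to 392 to 467 CPM in B6 CD4 and 919 to 1075 CPM in FlipFlop CD8, against 60.2 to 69.4 CPM in the cytotoxic-lineage libraries. The 6 naive T cell markers ranged from 3978 to 4179 CPM in FlipFlop CD8 and from 4988 to 5804 CPM in the other groups. Libraries labeled as replicates are treated as separate samples, although the labels name no separate animals.

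Of the 10 receptor chains, 4 differed between CD4 and CD8 T cells in each strain, but only 2 of them in the same direction. Il2rb and Il18r1 were higher in CD8 T cells of both strains, whereas Il4ra was higher in whichever population belonged to the helper lineage. Tests were made with limma over all 12 libraries and 11595 genes, each difference is on the log2(CPM + 0.5) scale and carries its standard error (SE), and a gene was called at a Benjamini-Hochberg adjusted p-value under 0.05. In B6 mice 4 of 10 members were called between CD4 and CD8 T cells, while 25.4% of all tested genes were called. Of the 4, 2 were higher in CD4 T cells, a direction taken by 14.6% of all genes, and 2 were lower, a direction taken by 10.8%. In FlipFlop mice 4 of 10 were called, beside 31.3% of all genes, and each of the 4 was lower in CD4 T cells, a direction taken by 16% of all genes. Without FlipFlop CD4 replicate 1 this count was 2. The median absolute difference of the members was 0.28 in B6 and 0.23 in FlipFlop mice, compared with 0.17 and 0.19 for all genes. No member reached an unadjusted p-value under 0.0001 together with more than 5-fold change, as 1.55% of genes did in B6 and 2.16% in FlipFlop mice.

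**Figure D1:**
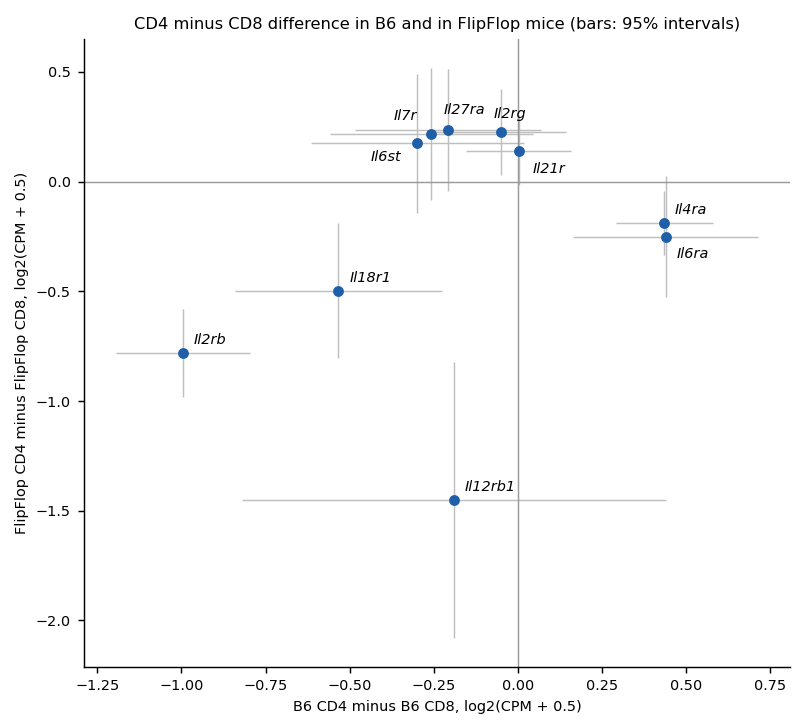
CD4 minus CD8 difference of each of the 10 receptor chains on the log2(CPM + 0.5) scale, in B6 mice on the horizontal axis and in FlipFlop mice on the vertical axis, with 95% intervals as bars. Il2rb and Il18r1 lie below 0 on both axes, Il4ra and Il6ra lie to the right of 0 in B6 and below 0 in FlipFlop mice, and Il12rb1 lies lowest at -1.45 in FlipFlop mice.

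Both strains were also combined. The lineage effect, the mean of B6 CD4 and FlipFlop CD8 minus the mean of B6 CD8 and FlipFlop CD4, is also the test of whether the CD4 minus CD8 difference depended on strain. It called 3 members, Il4ra, Il6ra and Il12rb1, all higher in the helper lineage, beside 39.3% of all genes, 19.9% in that direction. The coreceptor effect, the mean of both CD4 groups minus the mean of both CD8 groups, called 3 members, Il2rb, Il18r1 and Il12rb1, all lower in CD4 T cells, beside 5.49% of all genes, 3.78% in that direction. The strain effect, FlipFlop minus B6, called 4 members, of which Il7r, Il2rg and Il4ra were lower and Il2rb was higher in FlipFlop mice, beside 31.2% of all genes. It is a mean over both coreceptors. When strains were compared at the same coreceptor, Il7r and Il2rg were called between the CD8 groups alone. Il4ra and Il2rb were called between the CD4 groups alone. Of the tested genes within 1 Mb of these members, 1 of 7 was called in the strain effect for Il7r, 12 of 38 for Il2rb, 7 of 17 for Il2rg and 4 of 19 for Il4ra. Without B6 CD8 replicate 3, FlipFlop CD4 replicate 3 or FlipFlop CD8 replicate 2 the strain effect called 2 members. Its Il2rb value of 0.19 (adjusted p = 0.0403) was kept only without B6 CD4 replicate 2 or 3 or FlipFlop CD8 replicate 3 (otherwise adjusted p up to 0.0941) and was lost without the mean-variance trend (adjusted p = 0.0531). Of all tested genes, 0.44% passed in both strains with the same sign, among them Il2rb and Il18r1, and 16.9% passed in both with opposite signs, among them Il4ra.

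**Figure D2:**
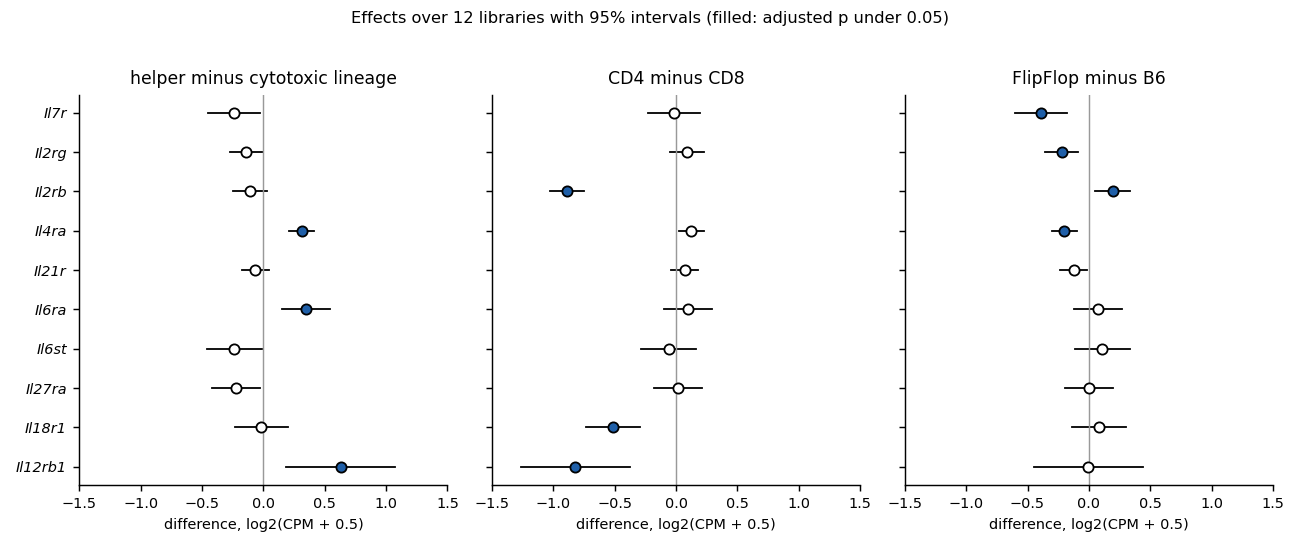
Lineage effect, coreceptor effect and strain effect of each receptor chain over 12 libraries, on the log2(CPM + 0.5) scale, with 95% intervals as lines and filled points at an adjusted p-value under 0.05. Il4ra and Il6ra stand right of 0 for lineage, Il2rb and Il18r1 stand left of 0 for coreceptor, and Il12rb1 departs from 0 in both.

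Same-numbered FlipFlop CD4 and CD8 libraries deviated from their group means alike, although the labels do not say that the numbers pair the samples. A fit with the replicate number as a block called 8 of 10 members between FlipFlop CD4 and FlipFlop CD8 T cells, beside 36.4% of all genes. The additional members were Il7r (adjusted p = 0.0395), Il2rg (adjusted p = 0.0190) and Il27ra (adjusted p = 0.00802), all higher in CD4, and Il6ra (adjusted p = 0.0408), higher in CD8 T cells. With the same block the lineage effect called 6 of 10 members, beside 44.5% of all genes. Its additional members, Il7r (adjusted p = 0.00453), Il2rg (adjusted p = 0.0288) and Il27ra (adjusted p = 0.00138), were all higher in the cytotoxic lineage. The Il7r, Il2rg and Il27ra differences depend on the scaling. With the TMM factor taken out and no block the lineage effect was -0.12 for Il7r, -0.016 for Il2rg and -0.10 for Il27ra. The FlipFlop difference was then 0.041 for Il7r, 0.050 for Il2rg and 0.059 for Il27ra, whereas for Il6ra it was -0.43 (adjusted p = 0.0458). The block was not fitted with the factor taken out. Between the B6 groups, where same-numbered libraries deviated less alike, the block called 6 of 10, beside 30% of all genes. For the coreceptor effect the block called the same number as the fit without it, 3, beside 8.23%.

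Il2rb, the β chain through which IL-2 and IL-15 signal, followed the coreceptor by which the cells were sorted. The gene (ENSMUSG00000068227.9) lies on chromosome 15 from 78479256 to 78495271 (GRCm38). Il2rb measured 249, 307 and 296 CPM for CD4 and 547, 585 and 562 CPM for CD8 T cells of B6 mice, and 353, 339.9 and 352 CPM for CD4 and 646, 624 and 533 CPM for CD8 T cells of FlipFlop mice. Every CD8 library was above every CD4 library, which 0.612% of all genes show in 1 direction or the other. The CD4 minus CD8 difference was -0.996 in B6 (SE 0.091, adjusted p = 5.24e-06) and -0.78 in FlipFlop mice (SE 0.091, adjusted p = 3.27e-05), and the coreceptor effect was -0.89 (SE 0.065, adjusted p = 1.12e-05). Thus Il2rb was 2.12-fold higher in FlipFlop CD8 than in B6 CD4 T cells, although both belong to the helper lineage, and 1.62-fold lower in FlipFlop CD4 compared with B6 CD8 (adjusted p = 0.000469). The lineage effect was -0.11 (95% interval -0.25 to 0.03, adjusted p = 0.216). Among cells with the same coreceptor, FlipFlop CD4 T cells exceeded B6 CD4 T cells by 0.30 (adjusted p = 0.0272), a call lost without B6 CD4 replicate 1 or any 1 of the 3 FlipFlop CD4 libraries (0.21 to 0.32, adjusted p = 0.0564 to 0.0736) and with only the 6 libraries compared (adjusted p = 0.0741). FlipFlop CD8 and B6 CD8 T cells differed by 0.09 (95% interval -0.11 to 0.28).

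Il18r1, the ligand-binding chain of the IL-18 receptor, was likewise higher in CD8 T cells, at a lower level per kilobase of exon. The gene (ENSMUSG00000026070.15) lies on chromosome 1 from 40465552 to 40500854. Il18r1 measured 41.6, 44.3 and 48.4 CPM for CD4 and 73.6, 61.8 and 60.1 CPM for CD8 T cells of B6 mice, and 43.2, 51.5 and 49.6 CPM for CD4 and 86.7, 64.4 and 56.1 CPM for CD8 T cells of FlipFlop mice. Again the lowest CD8 library lay above the highest CD4 library. The difference was -0.53 in B6 (SE 0.14, adjusted p = 0.0141), -0.50 in FlipFlop mice (SE 0.14, adjusted p = 0.0174) and -0.52 for the coreceptor effect (SE 0.10, adjusted p = 0.0104). The B6 call was lost without B6 CD8 replicate 1 (-0.44, adjusted p = 0.0634), and the FlipFlop call without FlipFlop CD8 replicate 1 (-0.32, adjusted p = 0.0592) or FlipFlop CD4 replicate 1 (-0.42, adjusted p = 0.0735), while the coreceptor effect passed with each library left out. Il18rap, its signaling partner, measured 3.68, 6.04 and 16.2 CPM for CD4 and 30.1, 30.9 and 33.8 CPM for CD8 T cells of B6 mice, and 6.47, 4.86 and 8.66 CPM for CD4 and 36.7, 14.5 and 15.4 CPM for CD8 T cells of FlipFlop mice. It was lower in CD4 T cells as well, with a coreceptor effect of -1.81 (adjusted p = 0.00573), although B6 CD4 replicate 3 overlapped the FlipFlop CD8 libraries.

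Markers of memory or effector T cells moved with these genes in the coreceptor effect, with 1 exception called in each strain. Of the 6 markers, 5 were lower in CD4 T cells in the coreceptor effect, beside 3.78% of all genes, and Eomes, at -0.46, was not called (adjusted p = 0.297). In B6 mice 4 of the 6 were called lower in CD4 T cells, beside 10.8% of all genes, and 1 higher. In FlipFlop mice 2 were called lower, beside 16% of all genes, and 1 higher. Unlike Il2rb and Il18r1, Cd44 was higher in CD4 than in CD8 T cells of B6 mice, by 0.79 (adjusted p = 0.000283). Eomes was higher in CD4 than in CD8 T cells of FlipFlop mice, by 2.27 (adjusted p = 0.000142). The 6 markers summed to 171 to 226 CPM in B6 CD4 and 239.7 to 295 CPM in FlipFlop CD4, below the 355 to 416 CPM of B6 CD8 and the 341 to 595 CPM of FlipFlop CD8 libraries. FlipFlop CD8 replicate 1 had the highest sum. In it the chemokine gene Ccl5 measured 164 CPM, against 15.3 and 35.8 CPM in the other 2 FlipFlop CD8 libraries, and Il2rb, Il18r1, Il18rap, Il12rb1, Il2rg, Il21r and Il7r were also highest in this library within its group. Without this library the coreceptor effect was -0.86 for Il2rb (adjusted p = 5.89e-05) and -0.43 for Il18r1 (adjusted p = 0.0115). The 6 regulatory T cell markers were all called higher in FlipFlop CD8 than in B6 CD4 T cells, with a median of 1.28, beside 27.6% of all genes called. In the coreceptor effect 2 of them were called, both lower in CD4 T cells, beside 3.78% of all genes in that direction. The part of memory, effector or regulatory cells in the Il2rb and Il18r1 differences was not tested, and in RNA of whole populations fewer cells of a type and less RNA per cell cannot be told apart.

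**Figure D3:**
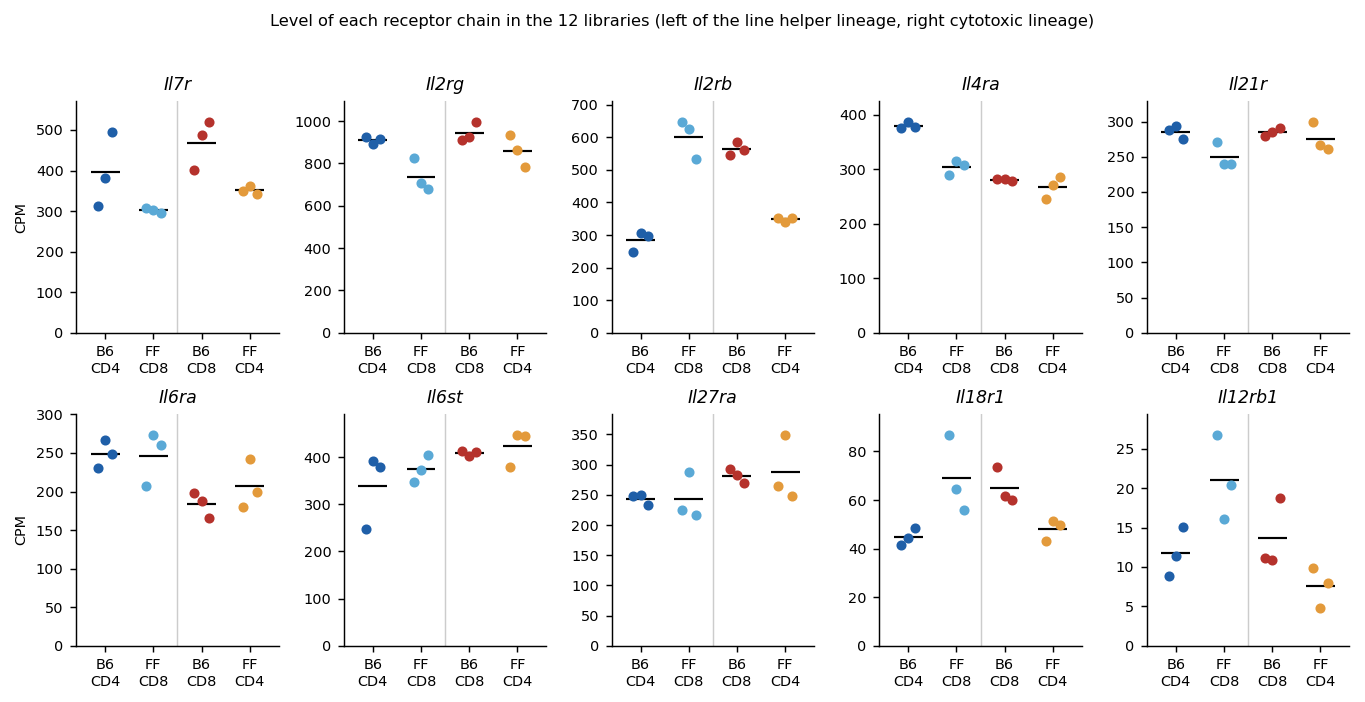
Level in CPM of each of the 10 receptor chains in each library (points), with group means as lines, for B6 CD4 and FlipFlop (FF) CD8 left of the vertical line and B6 CD8 and FlipFlop CD4 right of it. The CD8 libraries are above the CD4 libraries for Il2rb and Il18r1, and the helper-lineage libraries are above the cytotoxic-lineage libraries for Il4ra.

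Il12rb1, the chain that the receptors for IL-12 and IL-23 share, had the lowest level of the members per kilobase of exon and differed between the FlipFlop groups. The gene (ENSMUSG00000000791.9) lies on chromosome 8 from 70808449 to 70821424. Il12rb1 measured 8.83, 11.4 and 15.1 CPM for CD4 and 11.1, 10.9 and 18.8 CPM for CD8 T cells of B6 mice, and 9.92, 4.75 and 7.96 CPM for CD4 and 26.7, 16.0 and 20.5 CPM for CD8 T cells of FlipFlop mice. The FlipFlop CD8 libraries were above all FlipFlop CD4 and B6 CD4 libraries but overlapped B6 CD8. The difference between FlipFlop CD4 and FlipFlop CD8 was -1.45 (SE 0.29, adjusted p = 0.00213), whereas in B6 mice it was -0.19 (95% interval -0.82 to 0.44). Several marker sums were also higher in FlipFlop CD8 than in FlipFlop CD4. NK cell markers were at 13.2 to 16.1 against 3.61 to 5.12 CPM, and regulatory T cell markers at 919 to 1075 against 65.1 to 69.4 CPM. Myeloid markers were at 16.5 to 28.7 against 7.29 to 9.57 CPM, and memory or effector markers at 341 to 595 against 239.7 to 295 CPM. Naive T cell markers went the other way, and the T cell and B cell sums overlapped. The NK cell sum differed mainly through Klrb1c, at means of 10.8 and 1.82 CPM. The part of these cells in the Il12rb1 difference was not tested. Il12rb1 had both a lineage effect of 0.63 (SE 0.20, adjusted p = 0.0272) and a coreceptor effect of -0.82 (SE 0.20, adjusted p = 0.0365). The coreceptor call remained only without B6 CD4 replicate 3, FlipFlop CD4 replicate 1 or FlipFlop CD8 replicate 2 (adjusted p up to 0.0931 without another library) and was lost with a filter at a mean of 5 CPM (adjusted p = 0.0536), and the lineage call was lost without B6 CD4 replicate 3, B6 CD8 replicate 1 or 2, FlipFlop CD4 replicate 2, or FlipFlop CD8 replicate 1 or 3 (0.49 to 0.63, adjusted p up to 0.0684). Its partner in the IL-12 receptor, Il12rb2, ranged from 0.338 to 10.1 CPM and was called in no comparison.

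Il4ra, the ligand-binding chain for IL-4 that also serves IL-13, followed the lineage. The gene (ENSMUSG00000030748.9) lies on chromosome 7 from 125552120 to 125579474. Il4ra measured 376, 386 and 378 CPM for CD4 and 282, 282 and 278 CPM for CD8 T cells of B6 mice, and 244, 271 and 285 CPM for CD4 and 289, 314 and 307 CPM for CD8 T cells of FlipFlop mice. Every helper-lineage library lay above every cytotoxic-lineage library, a separation that 16.9% of all genes show. The CD4 minus CD8 difference was 0.44 in B6 (SE 0.066, adjusted p = 0.000343) and -0.19 in FlipFlop mice (SE 0.066, adjusted p = 0.0487), and the lineage effect was 0.31 (SE 0.047, adjusted p = 0.000182). The FlipFlop call is near its limit and was kept, of the 12 fits that left out a library, only without B6 CD4 replicate 1, FlipFlop CD4 replicate 3 or FlipFlop CD8 replicate 1 (otherwise adjusted p up to 0.204), whereas the lineage effect passed in all 12. The FlipFlop call was also lost with a filter at a mean of 5 CPM (adjusted p = 0.0566), without the mean-variance trend (adjusted p = 0.0689) and with only the 6 FlipFlop libraries in the fit (adjusted p = 0.0804), while with the TMM factor taken out the FlipFlop difference was -0.36 (adjusted p = 0.00624).

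Il4ra differed between the helper-lineage groups of the 2 strains. FlipFlop CD8 T cells had 1.25-fold less than B6 CD4 T cells, a difference of -0.32 (SE 0.066, adjusted p = 0.00507), and FlipFlop CD4 and B6 CD8 T cells differed by -0.08 (95% interval -0.22 to 0.07). Among CD8 T cells, the FlipFlop minus B6 difference of 0.11 was not called (95% interval -0.03 to 0.26, adjusted p = 0.196), although it was called higher with the TMM factor taken out. Without that factor the difference between FlipFlop CD8 and B6 CD4 was -0.16 (adjusted p = 0.172), so that this call depends on the scaling. Between helper- and cytotoxic-lineage libraries the 6 regulatory T cell markers and 3 of the 6 myeloid markers were called higher in the helper lineage. Of all genes, 39.3% were called in this effect, 19.9% in that direction. Of 5 tested B cell markers, 3 were called lower in FlipFlop CD8 than in B6 CD4 T cells (median -0.65), where 27.6% of all genes were called in either direction. In the strain effect 3 were called lower (median -0.56), beside 31.2% of all genes in either direction. The part of all these cells in the Il4ra differences was not tested. In the strain effect Il4ra was at -0.20 (adjusted p = 0.00887, and adjusted p = 0.271 without the TMM factor).

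Il21r, which binds IL-21, lies on chromosome 7, 24.0 kb beyond the end of Il4ra, but its lineage effect was not called. The gene (ENSMUSG00000030745.9) reaches from 125603429 to 125633570. Il21r measured 287, 294 and 276 CPM for CD4 and 279.7, 285 and 291 CPM for CD8 T cells of B6 mice, and 299, 266 and 261 CPM for CD4 and 270.5, 239.6 and 239.9 CPM for CD8 T cells of FlipFlop mice. The B6 groups overlapped fully, with a difference of 0.00 (95% interval -0.15 to 0.16), and the lineage effect was -0.07 (95% interval -0.18 to 0.04). All FlipFlop CD8 libraries lay below all B6 libraries of either kind. Between FlipFlop CD8 and the B6 CD8 group the difference was -0.19 (SE 0.071, adjusted p = 0.0456), but this call was lost in 7 of the 12 fits that left out a library, namely B6 CD4 replicate 2, each B6 CD8 library, FlipFlop CD4 replicate 2, and FlipFlop CD8 replicate 2 or 3 (adjusted p up to 0.156). It was also lost under median-of-ratios scaling (-0.17, adjusted p = 0.0666) and without the mean-variance trend (adjusted p = 0.0637), and the sign turned to 0.04 without the TMM factor.

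Il2rg, the common γ chain, had the highest level of the members per kilobase of exon and was lower in FlipFlop CD8 than in both B6 groups. The gene (ENSMUSG00000031304.18) lies on chromosome X from 101264378 to 101268255. Il2rg measured 925, 892 and 914 CPM for CD4 and 910.3, 926 and 994 CPM for CD8 T cells of B6 mice, and 935, 861 and 785 CPM for CD4 and 823, 707 and 679 CPM for CD8 T cells of FlipFlop mice. The FlipFlop CD8 libraries were below all 6 B6 libraries and overlapped FlipFlop CD4. FlipFlop CD8 minus B6 CD8 was -0.36 (SE 0.089, adjusted p = 0.00596) and FlipFlop CD8 minus B6 CD4 was -0.31 (SE 0.089, adjusted p = 0.0250), whereas B6 CD4 and B6 CD8 differed by -0.05 (95% interval -0.25 to 0.14). The call against B6 CD4 was lost without B6 CD4 replicate 1 or FlipFlop CD8 replicate 2 or 3 (-0.30 to -0.25, adjusted p up to 0.103) and with only the 6 libraries compared (adjusted p = 0.0772). The strain effect was -0.22 (SE 0.063, adjusted p = 0.0213), lost without B6 CD8 replicate 3, FlipFlop CD4 replicate 3, or FlipFlop CD8 replicate 2 or 3 (-0.21 to -0.19, adjusted p up to 0.0567).

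These shifts depend on the scaling of the FlipFlop CD8 libraries. Taking out the TMM factor raised the median of all genes by 0.23 between FlipFlop CD8 and B6 CD8, by 0.16 between FlipFlop CD8 and B6 CD4, by 0.12 for the lineage effect and by 0.11 for the strain effect, and it moved the median by -0.17 between FlipFlop CD4 and FlipFlop CD8. Without the factor, Il2rg was at -0.13 between FlipFlop CD8 and B6 CD8 (adjusted p = 0.137), at -0.14 between FlipFlop CD8 and B6 CD4 (adjusted p = 0.120) and at -0.11 for the strain effect (adjusted p = 0.0905). Members called between FlipFlop CD8 and B6 CD8 numbered 1 higher and 3 lower with the factor and 4 higher and 1 lower without it, where 49% of all genes were called. Between FlipFlop CD8 and B6 CD4 they numbered 2 higher and 2 lower with it and 3 higher and 0 lower without it, where 29.5% were called. Median-of-ratios scaling, the other rescaling tried, moved the median of all genes by at most 0.03 in absolute value, and the Il2rg calls passed under it.

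Il7r, the IL-7 receptor α chain of naive and memory T cells, was lower in FlipFlop CD8 than in B6 CD8 T cells, and its strain effect was called as well. The gene (ENSMUSG00000003882.5) lies on chromosome 15 from 9505788 to 9530176. Il7r measured 314, 382 and 494 CPM for CD4 and 401, 487 and 519 CPM for CD8 T cells of B6 mice, and 349.7, 361 and 343 CPM for CD4 and 309, 302 and 295 CPM for CD8 T cells of FlipFlop mice. The FlipFlop CD8 libraries were the lowest, below every other library, and the B6 CD4 libraries were spread over the widest range. The FlipFlop CD4 libraries lay within that range, and Il7r was not called between the CD4 groups. The difference between FlipFlop CD8 and B6 CD8 was -0.62 (SE 0.14, adjusted p = 0.00299), which became -0.39 with the TMM factor taken out (adjusted p = 0.0391), and the strain effect was -0.39 (SE 0.098, adjusted p = 0.0126), which became -0.27 without the factor (adjusted p = 0.0524). Of the 6 naive T cell markers, 3 were called between FlipFlop CD8 and B6 CD8, all lower in FlipFlop CD8, beside 44.7% of all genes, with a median of -0.34 over the 6. The 6 regulatory T cell markers were all called higher in FlipFlop CD8, with a median of 5.44. The part of these cells in the Il7r difference was not tested. The CD4 minus CD8 difference of -0.26 in B6 and 0.22 in FlipFlop mice was called in neither, and the lineage effect was -0.24 (95% interval -0.45 to -0.02, adjusted p = 0.0744). With the replicate block both were called (adjusted p = 0.0234 in B6 and 0.0395 in FlipFlop mice), and with only the 6 FlipFlop libraries in the fit the FlipFlop difference was called (adjusted p = 0.0155). Without the TMM factor the FlipFlop difference was 0.041 and the lineage effect -0.12. Without B6 CD4 replicate 3, the highest of its group, the B6 difference was -0.43 (adjusted p = 0.0154) and the lineage effect -0.32 (adjusted p = 0.00515), and without B6 CD8 replicate 1 the lineage effect was -0.29 (adjusted p = 0.0360). Without B6 CD4 replicate 1, the lowest of its group, they moved the other way, to -0.0998 for the B6 difference (adjusted p = 0.587) and -0.16 for the lineage effect.

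Among the chains of the gp130 family, Il6ra followed the lineage while Il6st and Il27ra were not called in any comparison of all 12 libraries made without the block. Il6ra (ENSMUSG00000027947.11), the binding chain for IL-6, lies on chromosome 3 from 89864059 to 89913196. Il6ra measured 231, 267 and 249 CPM for CD4 and 198, 187 and 165 CPM for CD8 T cells of B6 mice, and 180.0, 242 and 199.6 CPM for CD4 and 207, 273 and 260.3 CPM for CD8 T cells of FlipFlop mice. In B6 mice the groups did not overlap, whereas in FlipFlop mice CD4 replicate 2 lay above CD8 replicate 1. The lineage effect was 0.35 (SE 0.089, adjusted p = 0.00830) and passed with each library left out. The difference was 0.44 in B6 (SE 0.13, adjusted p = 0.0217) and -0.25 in FlipFlop mice (95% interval -0.53 to 0.02, adjusted p = 0.161), so the FlipFlop difference was not called by itself except with the block, with the TMM factor taken out (-0.43, adjusted p = 0.0458) or without FlipFlop CD8 replicate 1 (-0.37, adjusted p = 0.0423). Without FlipFlop CD4 replicate 1 it was -0.15 (adjusted p = 0.463). The B6 call was lost without B6 CD4 replicate 2, B6 CD8 replicate 2 or B6 CD8 replicate 3 (0.37 to 0.46, adjusted p up to 0.0924). Il6ra of FlipFlop CD8 T cells differed from B6 CD4 T cells by -0.02 (95% interval -0.30 to 0.25) and exceeded B6 CD8 T cells by 0.42 (adjusted p = 0.0175), a call lost without B6 CD8 replicate 3 or FlipFlop CD8 replicate 2 or 3 (0.34 to 0.37).

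Il6st (ENSMUSG00000021756.12), the shared signaling chain, lies on chromosome 13 from 112464070 to 112510086. Il6st measured 247, 392 and 378 CPM for CD4 and 413, 403 and 411 CPM for CD8 T cells of B6 mice, and 379, 447 and 445 CPM for CD4 and 348, 372 and 404 CPM for CD8 T cells of FlipFlop mice. B6 CD4 replicate 1 stood far below the other libraries, and the B6 groups did not overlap, unlike the FlipFlop groups. Its lineage effect was -0.24 (95% interval -0.46 to -0.01, adjusted p = 0.0885), with 1 call made without B6 CD4 replicate 2 (-0.30, adjusted p = 0.0391). Without B6 CD4 replicate 1, the low library, the lineage effect was -0.13 and the B6 difference moved from -0.30 to -0.087. Il27ra (ENSMUSG00000005465.9), the binding chain for IL-27, lies on chromosome 8 from 84030294 to 84042589. Il27ra measured 247, 250.4 and 233 CPM for CD4 and 292, 283 and 269 CPM for CD8 T cells of B6 mice, and 264, 349 and 248 CPM for CD4 and 225, 287 and 217 CPM for CD8 T cells of FlipFlop mice. Within FlipFlop mice replicate 2 was the highest of both groups and each CD4 library was above the CD8 library of its number. The Il27ra lineage effect was -0.22 (95% interval -0.42 to -0.03, adjusted p = 0.0693), and was called without FlipFlop CD4 replicate 3 (-0.27, adjusted p = 0.0333) or FlipFlop CD8 replicate 2 (-0.28, adjusted p = 0.0198), and was -0.15 without FlipFlop CD4 replicate 2.

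Members were also compared across strains. With FlipFlop CD8 set against B6 CD4, 4 of 10 members were called, Il2rb and Il18r1 higher and Il2rg and Il4ra lower in FlipFlop CD8, beside 27.6% of all genes. With FlipFlop CD4 set against B6 CD8, 1 member, Il2rb, was called, beside 7.92% of all genes. Between cells with the same coreceptor, 2 of 10 members were called for CD4 T cells, Il2rb higher and Il4ra lower in FlipFlop mice, beside 28.4% of all genes, and 4 of 10 for CD8 T cells, Il6ra higher and Il7r, Il2rg and Il21r lower in FlipFlop mice, beside 44.7% of all genes. Il4ra was at -0.51 for FlipFlop CD4 minus B6 CD4 (SE 0.066, adjusted p = 9.92e-05), and Il18r1 was at 0.60 for FlipFlop CD8 minus B6 CD4 (SE 0.14, adjusted p = 0.0104). These counts moved with single libraries. The count for FlipFlop CD4 against B6 CD8 was 2 without B6 CD4 replicate 1, B6 CD4 replicate 3 or FlipFlop CD8 replicate 1. The count for the CD4 groups was 1 without B6 CD4 replicate 1 or FlipFlop CD4 replicate 1 or 3, and the count for the CD8 groups was 2 without FlipFlop CD8 replicate 3.

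Levels of different genes were compared per kilobase of exon in the annotation. Il2rg was highest in every group, from 309 to 395 CPM per kb, and Il18r1 and Il12rb1 were lowest in every group, at 9.29 to 14.3 and 1.84 to 5.14 CPM per kb. Il2rb ranked 2 in both CD8 groups, at 132 CPM per kb in B6 and 140.2 CPM per kb in FlipFlop mice, but ranked 5 in B6 CD4 with 66.2 and 4 in FlipFlop CD4 with 81.3 CPM per kb. Il6st and Il6ra ranked 7 and 8 in all 4 groups. In the middle of the order the genes were close together, for example Il21r at 85.9 and Il7r at 85.1 CPM per kb in B6 CD4, a smaller distance than the 23.0% coefficient of variation of Il7r in that group.

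**Figure D4:**
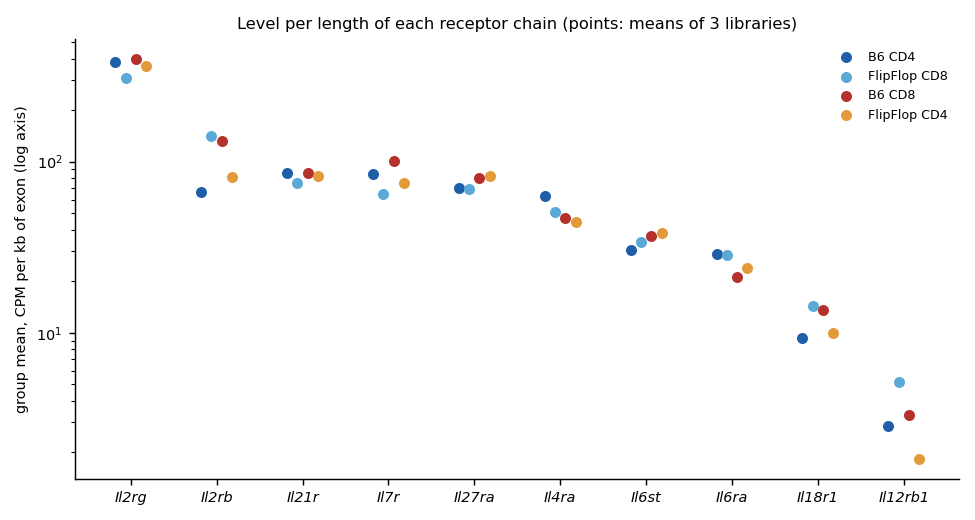
Group mean of each receptor chain in CPM per kb of exon on a log axis, with 1 point for each of the 4 groups. Il2rg is highest in every group, and the 2 CD8 points of Il2rb stand above its 2 CD4 points.

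To see whether the chains of a receptor changed unequally, the difference between their log2 levels was taken within each library and 6 libraries were compared with 6 by an exact permutation test (two-sided, 924 permutations, smallest possible p = 0.00216), adjusted over 8 pairs. Between lineages, Il4ra minus Il2rg was higher in helper-lineage cells by 0.45 (exact p = 0.00433, adjusted p = 0.0173), averaging -1.27 ± 0.13 against -1.72 ± 0.16 (SD, n = 6). Il6ra minus Il6st was higher by 0.58 (exact p = 0.00216, adjusted p = 0.0173), averaging -0.52 ± 0.23 against -1.10 ± 0.14 (SD, n = 6), and the 2 sets of libraries did not overlap. The other 6 pairs had adjusted p-values of at least 0.335. This test shuffles libraries without regard to their numbers. An alternative was added after the values had been seen. It was an exact sign-flip test within the 6 pairs of same-numbered helper- and cytotoxic-lineage libraries of a strain (64 flips, smallest possible p = 0.0312). The labels do not say that these numbers pair the samples, and same-numbered B6 libraries deviated less alike. Il4ra minus Il2rg, Il6ra minus Il6st and Il21r minus Il2rg were then higher in the helper library in 6 of 6 pairs, each at that smallest p (exact p = 0.0312, adjusted p = 0.0833), so that no pair passed after adjustment. With 64 flips this outcome is nearly fixed, since at least 6 of the 8 pairs would have to reach the smallest p for any to pass, and it says nothing about the stability of the differences, which are the same. Il21r minus Il2rg differed by 0.07 on average, with a range over the pairs of 0.016 to 0.13. Il2rb minus Il2rg, for instance, differed by 0.03 between lineages, and Il27ra minus Il6st by 0.02.

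Between CD4 and CD8 T cells, a split chosen after the values had been seen and therefore given as a description, Il2rb minus Il2rg averaged -1.49 ± 0.25 against -0.52 ± 0.26 (SD, n = 6). Il18r1 minus Il18rap averaged 2.67 ± 0.65 in CD4 and 1.38 ± 0.50 in CD8 T cells (SD, n = 6), as the difference between CD4 and CD8 T cells was larger for Il18rap than for Il18r1.

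**Figure D5:**
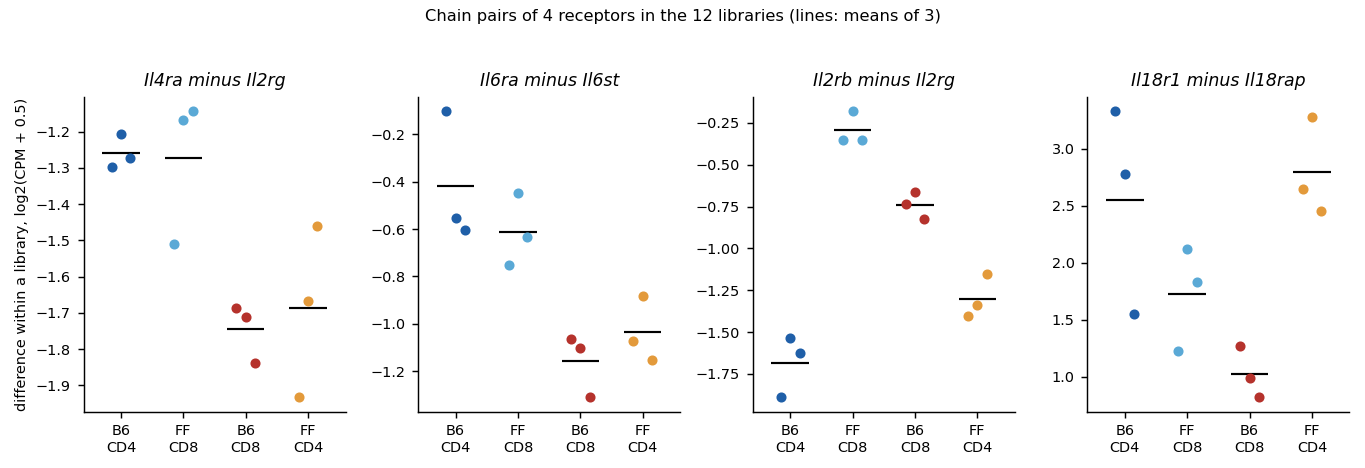
Difference between the log2(CPM + 0.5) values of 2 chains of a receptor in each library (points; lines are means of 3) for 4 pairs and for B6 CD4, FlipFlop (FF) CD8, B6 CD8 and FlipFlop CD4 T cells. Il4ra minus Il2rg and Il6ra minus Il6st are high in the helper-lineage groups on the left, and Il2rb minus Il2rg is high in both CD8 groups.

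Across the 12 libraries the levels of some members ran together, which is given as a description, since all values share the libraries and their scaling. Pearson's r on the log2(CPM + 0.5) scale was 0.94 between Il2rg and Il21r, 0.88 between Il2rb and Il18r1, 0.71 between Il7r and Il2rg, 0.66 between Il4ra and Il6ra and -0.66 between Il27ra and Il12rb1. Among all tested genes, Il2rb was most like Hopx (r = 0.96), Cdk6 (r = 0.96) and Cobll1 (r = 0.94). Il4ra was most like Tecpr1 (r = 0.97), Gm4956 (r = 0.95) and Myo6 (r = 0.95), and Il6ra was most like Pik3c2b (r = 0.94), Sbf2 (r = 0.92) and Mtss1 (r = 0.91). Il2rg was most like Rtcb, Eif3e and Snu13, at r = 0.97 each, and Il21r was most like Eif2s2 (r = 0.96), Il2rg itself and Hnrnpc (r = 0.94). Il7r was nearest to G3bp2, Tspyl4 and Ado (r = 0.94 to 0.95), Il6st to Atm, Rfx7 and Sipa1l2 (r = 0.96 to 0.98), and Il12rb1 to Sec61a2, Tedc1 and Srgn (r = 0.91 to 0.93). Il27ra had the weakest likeness, to Hs6st1, Krr1 and A630052C17Rik (r = 0.84 to 0.87). For Il18r1 the nearest were Trav9d-3 and Trav9n-3 at r = 0.91 each, segments of the T cell receptor α locus that are near-identical copies whose reads are uncertain, and Crot (r = 0.89).

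Receptor chains outside the members were read from a list of their own. Of 49 other chains looked for, 34 are listed in the table and 29 were tested. The lineage effect called 19 of the 29, 16 higher and 3 lower in the helper lineage, beside 39.3% of all genes and 19.9% in the higher direction, with a median of 0.42 for the list and -0.03 for all genes. Of these, 5 chains, all called higher, reached the filter of 1 CPM through helper-lineage libraries alone (Il13ra1, Il17rb, Il17re, Il1r1 and Il1rl1), so that the filter fixed their direction. Among the other 24, 11 were higher and 3 lower, with a median of 0.23. These 24 had at least 1 cytotoxic-lineage library at 1 CPM, whereas the filter needs 3. Il1r2 reached 1 CPM there only in FlipFlop CD4 replicate 1, at 1.31 CPM, so its helper-lineage libraries admitted it as well. The coreceptor effect called 6 of the 29, 1 higher and 5 lower in CD4 T cells, beside 5.49% of all genes. Il2ra, the IL-2 receptor α chain and also a marker of regulatory T cells, measured 84.3 to 105 CPM in B6 CD4 and 195 to 251 CPM in FlipFlop CD8 against 1.84 to 3.88 CPM in the cytotoxic-lineage libraries, a lineage effect of 5.38 (SE 0.12, adjusted p = 1.68e-11). Il1rl1, the receptor for IL-33, measured 3.31 to 9.83 and 17.6 to 22.0 CPM in the same helper-lineage groups and 0 to 0.166 CPM in the cytotoxic-lineage libraries. Il1r2, a decoy receptor for IL-1, measured 3.86 to 6.78 and 20.1 to 27.5 CPM against 0.0800 to 1.31 CPM, and Il9r, which pairs with Il2rg, 6.95 to 11.0 and 13.2 to 19.3 CPM against 0.440 to 1.35 CPM. Il15ra, the third chain of the IL-15 receptor, ranged from 3.74 to 8.48 CPM. It was lower in B6 CD4 than in B6 CD8 T cells, at -0.61 (SE 0.20, adjusted p = 0.0420), and lower in FlipFlop CD8 than in B6 CD8 T cells, at -0.53 (SE 0.20, adjusted p = 0.0479), while its lineage effect of -0.29 was not called (adjusted p = 0.127).

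Of 17 ligands of the members, 7 are listed and 5 were tested, Il4, Il21, Ebi3, Lif and Osm, and all 5 were higher in the helper lineage, a direction taken by 19.9% of all genes. For 4 of them, Il4, Il21, Ebi3 and Lif, the direction was fixed by the filter, which they passed through helper-lineage libraries alone. Il4 was listed at 0 in all 6 cytotoxic-lineage libraries. Ebi3, a subunit of IL-27, measured 11.4 to 13.8 CPM in FlipFlop CD8 T cells against 3.86 to 4.23 CPM in B6 CD4 and at most 0.361 CPM in cytotoxic-lineage libraries. Of the 4 JAK kinases, which carry the signal of these receptors, Jak1 was lower in the helper lineage, at -0.33 (SE 0.063, adjusted p = 0.00102) and Jak2 was higher by 0.21 (SE 0.078, adjusted p = 0.0473). Jak1 measured 764 to 957 CPM in B6 CD4 and 905 to 939 CPM in FlipFlop CD8 against 1074 to 1119 CPM in B6 CD8 and 1124 to 1225 CPM in FlipFlop CD4 T cells. The lineages did not overlap, as was the case for 16.9% of all genes. Jak3, the kinase of Il2rg, and Tyk2 were called in no comparison.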

How the data were processed

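RNA of LN T cells sorted from B6 and FlipFlop mice was sequenced in 12 libraries, 3 per group. The methods give alignment with STAR to mm10, whereas the submitters' processing notes list Trimmomatic and TopHat. The deposited values are a normalized signal, CPM that the authors divided by a TMM factor, for 12809 genes, all of which matched the GENCODE M21 annotation by identifier. Steps between low values gave depths of about 26600000 to 33100000 reads per library, and 3 reads were worth 0.0857 to 0.120 CPM. This floor covers counting error only. Of the values under 100 CPM, 84.8% to 86.4% were whole reads, too few for a test of counts.

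Values were analysed as log2(CPM + 0.5), which understates the change of low genes. The 11595 genes that reached 1 CPM in 3 or more libraries were tested with limma 3.58.1 in R 4.3.3, with 1 mean per group over all 12 libraries, a mean-variance trend and Benjamini-Hochberg adjustment over all tested genes, and all 10 members passed this filter. Pairs of chains were compared by exact permutation tests over libraries. Where the libraries of groups are said not to overlap, this describes the values. The share of all genes separated in such a way is given only for the lineage and coreceptor effects. Alternatives were pseudocounts of 0.1 and 1, no filter, a mean of at least 5 CPM, median-of-ratios scaling, the TMM factor taken out, no trend, only the 6 libraries compared, a replicate block and leaving out each library, and for chain pairs flips within same-numbered libraries, added after the data were seen.

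The members and lists were chosen with earlier results of these data known. All members are named, with their partner chains, the 5 receptor chains, ligands or kinases with the largest called lineage effects, and the 3 genes most like each member. The JAK kinases, the ligands tested, the chains named for how they passed the filter and the marker genes were named after their values were seen. Promoters came from RefSeq. Whether replicate numbers pair the samples was judged from how same-numbered CD4 and CD8 libraries deviated from their group means. The correlations were 0.443, 0.271 and 0.513 in FlipFlop mice, where the numbers were taken to pair the samples. They were 0.184, 0.0887 and 0.352 in B6 mice, where they did not all reach 0.1. The labels themselves name no pairing. Figures were drawn with matplotlib 3.10.9.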

Additional observations from a re-analysis of the deposited data

Results flagged for a closer look

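For Il4ra, Il6ra and Il12rb1 the CD4 minus CD8 difference itself differed between B6 and FlipFlop mice by the limma interaction test, 3 of 10 members beside 39.3% of all genes. Expressed as the lineage effect, this was 0.31 for Il4ra, which was higher in CD4 T cells of B6 mice and in CD8 T cells of FlipFlop mice. It was 0.35 for Il6ra, with the same directions of the means but a called difference in B6 mice only. It was 0.63 for Il12rb1, whose difference was called in FlipFlop mice only, and the interaction call was lost in 6 of the 12 fits that left out a library. The helper-lineage libraries also had higher sums of regulatory T cell markers, and the part of these cells in the differences was not tested.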

How the results depend on the processing

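Il2rb in each strain and in the coreceptor effect, Il4ra in B6 mice and in the lineage effect, and Il6ra in the lineage effect kept their direction and call under all alternatives. So did Il18r1 in the coreceptor effect and Il12rb1 between the FlipFlop groups. Across strains, without the block, the same held for Il2rb and Il18r1 between FlipFlop CD8 and B6 CD4 and for Il2rb between FlipFlop CD4 and B6 CD8. It also held for Il4ra between the CD4 groups and Il7r between the CD8 groups. With the TMM factor taken out the strain effect called 1 member, Il2rb, beside 34.5% of all genes. The replicate block called 8 members between the FlipFlop groups, 6 for the lineage effect and 6 between the B6 groups, where Il7r and Il27ra were added, beside 36.4%, 44.5% and 30% of all genes. The comparisons across strains and the strain effect could not be fitted with the block. With only the 6 libraries compared, there were 3 called members for FlipFlop CD4 against B6 CD8, beside 9.49% of all genes, and 1 for FlipFlop CD4 against B6 CD4, beside 18.5%. Over the 12 fits that left out a library, the counts ranged from 2 to 5 between the FlipFlop groups (23.5% to 38.2% of all genes), 1 to 2 for FlipFlop CD4 against B6 CD8 (4.24% to 13.6%), 1 to 3 for FlipFlop CD4 against B6 CD4 (21.8% to 29.9%), 2 to 4 for FlipFlop CD8 against B6 CD8 (35.1% to 52.8%) and 2 to 4 for the strain effect (20.7% to 34.7%). Of the chain pairs, 2 passed between lineages and 0 passed when signs were flipped within same-numbered libraries, a pairing in which 3 pairs were below an unadjusted p of 0.05 but at least 6 at the smallest p would be needed for any to pass. Other values changed sign, of which the difference of Il21r between FlipFlop CD8 and B6 CD8 alone had been called, at -0.19. Under median-of-ratios scaling Il21r was at -0.0071 between the B6 groups. With the TMM factor taken out, Il2rg was at 0.017 between the B6 groups, Il6st at -0.00069 and Il21r at -0.037 between the FlipFlop groups, and Il21r at 0.042 between FlipFlop CD8 and B6 CD8. The lineage effect was then 0.014 for Il2rb, 0.053 for Il21r and 0.10 for Il18r1, and the coreceptor effect -0.041 for Il27ra. Leaving out libraries gave -0.38 to 0.0585 for Il12rb1 and -0.0185 to 0.0275 for Il21r between the B6 groups, -0.11 to 0.0501 for the lineage effect of Il18r1, and coreceptor effects of -0.0606 to 0.0762 for Il27ra, -0.12 to 0.0443 for Il6st and -0.11 to 0.0588 for Il7r. The lineage differences of pairs ranged from -0.0928 to 0.0861 for Il27ra minus Il6st, -0.00889 to 0.50 for Il18r1 minus Il18rap and -0.13 to 0.21 for Il2rb minus Il2rg. The causes were not tested. With 3 libraries per group, Il12rb1 had the widest intervals of the members.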
